A study of Mus musculus with 12 samples.

Results

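The genes described here are those of the lysosome in G1E-ER4 cells: its digestive enzymes, proteins of its membrane, the subunits of the proton pump that acidifies it, and 2 transcription factors that regulate it. They were chosen by symbol. A list named 24 genes, and every gene whose symbol began with Atp6v0 or Atp6v1 was added as a pump gene. This gave 22 more, so that the set held 46 of the 17210 genes in the count table. It comprised 5 membrane proteins, 7 proteases, 7 glycosidases, 3 sphingolipid or precursor proteins and the factors Tfeb and Tfe3. For the pump it held, by symbol, 9 genes of the membrane part (V0) and 13 of the cytosolic part (V1). Among the latter, Atp6v1fnb is named as the neighbor of Atp6v1f and is not a pump subunit. Tcirg1, a form of a V0 subunit under another symbol, was not among the 46. Of the 46 genes, 37 had enough counts to be tested and 9 did not.

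G1E-ER4 is a mouse erythroid progenitor line (strain C57BL/6J per the labels) whose GATA1 is an estrogen receptor fusion that needs β-estradiol (EST) to work. Every culture was infected for 24 h with retrovirus, either without insert or encoding active SREBP2, a FLAG-tagged fragment that works without cleavage, and then received vehicle or EST for 6 h. The sample protocol gives the EST dose as 500 nM and the design text as 200 nM. There were 12 mRNA libraries and 4 groups of 3: Vector (empty vector, no EST), SREBP2 (active SREBP2, no EST), Vector+EST and SREBP2+EST. SREBP2 was therefore in excess of its normal amount, all groups came from a single cell line, and nothing in the labels says that the libraries of a group were separate cultures, so p-values measure the spread between these libraries, which may be technical. Levels are given as CPM, counts scaled to a common library size, and the libraries are named by their group and the number in the count table.

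Library totals ran from 18700959 to 19152281 counts. The study's methods describe its active SREBP2 as human, and the table holds mouse genes, so the row of mouse Srebf2 counts the cells' own transcript and those reads of the added fragment that were assigned to it, in unknown parts. Srebf2 lay between 797 and 837 CPM in the 6 libraries with added SREBP2 and between 355 and 456 CPM in the other 6. Gata1 reads, which include those of the fusion, lay between 1752 and 1786 CPM in Vector and between 420 and 585 CPM in all other libraries, so the SREBP2 libraries, which the labels put without EST, lay with the EST-treated ones. All 8 erythroid markers were above the floor of 3 counts, with a summed level between 3805 and 5333 CPM over the libraries. The labels give the cell type as embryonic stem cells, but of 7 stem cell markers Pou5f1, Zfp42 and Utf1 had no row in the table, Sox2, Esrrb and Dppa5a did not exceed the floor in any library, and Nanog did. Of 9 macrophage markers, genes of a cell type rich in lysosomes, 4 were above the floor in some library and the summed level was at most 1.03 CPM, while Cd14, Adgre1, Mrc1, Mpeg1 and Lyz2 did not exceed the floor. Of 7 fibroblast markers, Col1a1, Col3a1, Fn1, Mmp2 and Igfbp7 were higher in Vector+EST 5 and the 3 SREBP2+EST libraries than in the other 8, with Col1a1 between 6.5 and 13.8 CPM against at most 0.0542 CPM. Col1a2 did not follow this split, with a mean of 19.5 CPM in Vector against 4.56, 5.47 and 6.91 CPM in the SREBP2, Vector+EST and SREBP2+EST groups, and Dcn did not exceed the floor. The summed level of the 7 markers was therefore 19.2 to 19.9 CPM in Vector, 4.03 to 5.48 with SREBP2, 4.71 to 36.5 with EST and 18.7 to 35.2 with both. SREBP2 1 and SREBP2+EST 1 deviated from their group means in opposite directions (r = -0.17 across genes), and each deviated with libraries of the other group, SREBP2 1 with SREBP2+EST 2 and 5 (r = 0.11 and 0.088) and SREBP2+EST 1 with SREBP2 3 and 5 (r = 0.065 and 0.13).

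The lysosome degrades proteins, lipids, sugars and worn organelles that reach it by endocytosis or autophagy, and a maturing red cell relies on it to clear its organelles. Its enzymes work in an acid lumen, which the proton pump keeps up: the V1 part splits ATP outside the membrane and the V0 part carries protons across it. TFEB and TFE3 are related factors that enter the nucleus when lysosomes are stressed or nutrients are low, and bind short E-box sequences, of the form CACGTG with preferred flanks, in the promoters of many of these genes. The lysosome also releases cholesterol from endocytosed lipoproteins, which the SREBP2 pathway senses.

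Promoter windows of 300 bases, from 250 bases before to 50 after the start site, were found in RefSeq (GRCm38.p6) for 38 of the 46 genes, 46 windows in all, and were searched on both strands. The core E-box CACGTG stood in 28.3% of these windows, in those of 13 genes, against 7.15% of all 32851 RefSeq windows. TCACGTGA, which holds that core and was added to the search after the data were seen, stood in 15.2% of them (Atp6v0d1, Atp6v0e, Atp6v1a, Ctsa, Ctsd, Gla and Mcoln1) against 0.974% of all windows. The CLEAR palindrome, the longest consensus of TFEB and TFE3, was in no window of a member and in 0.326% of all windows. The sterol element TCACNCCAC, read by SREBP2, was in 4.35% of the windows (Ctsc and the untested Atp6v1fnb) against 1.24% of all, and the GATA motif AGATAA in 10.9% against 11.2% of all.

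The 4 windows below are shown because their genes answered in different ways, as described further on: Ctsd fell with EST and rose with SREBP2, Atp6v0e rose with either, Mcoln1 rose modestly with either, and Ctsc fell with either. Each runs from 250 bases before the start site to 30 after it, and capitals mark matches to the motifs searched, a core E-box, its longer form, the sterol element or the GATA motif. In GRCm38.p6 they lie at chr7:142387798-142388077 on the minus strand (Ctsd), chr17:26676146-26676425 on the plus strand (Atp6v0e), chr8:3500269-3500548 on the plus strand (Mcoln1) and chr7:88277835-88278114 on the plus strand (Ctsc).
Ctsd: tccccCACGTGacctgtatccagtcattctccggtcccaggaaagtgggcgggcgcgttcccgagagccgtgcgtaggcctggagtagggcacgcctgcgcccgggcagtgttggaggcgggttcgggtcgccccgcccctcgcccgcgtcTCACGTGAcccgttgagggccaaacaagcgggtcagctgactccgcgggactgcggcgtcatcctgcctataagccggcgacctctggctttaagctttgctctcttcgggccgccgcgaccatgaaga
Atp6v0e: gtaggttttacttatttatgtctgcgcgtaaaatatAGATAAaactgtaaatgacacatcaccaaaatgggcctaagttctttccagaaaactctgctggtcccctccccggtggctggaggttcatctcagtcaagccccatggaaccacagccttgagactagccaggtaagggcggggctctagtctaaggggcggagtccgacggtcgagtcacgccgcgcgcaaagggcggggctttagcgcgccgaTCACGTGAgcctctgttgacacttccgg
Mcoln1: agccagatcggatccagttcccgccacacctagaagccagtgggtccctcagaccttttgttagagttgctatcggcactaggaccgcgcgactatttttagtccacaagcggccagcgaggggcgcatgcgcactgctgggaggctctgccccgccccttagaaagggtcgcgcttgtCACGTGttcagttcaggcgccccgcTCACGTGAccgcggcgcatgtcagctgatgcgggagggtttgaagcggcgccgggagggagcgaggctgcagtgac
Ctsc: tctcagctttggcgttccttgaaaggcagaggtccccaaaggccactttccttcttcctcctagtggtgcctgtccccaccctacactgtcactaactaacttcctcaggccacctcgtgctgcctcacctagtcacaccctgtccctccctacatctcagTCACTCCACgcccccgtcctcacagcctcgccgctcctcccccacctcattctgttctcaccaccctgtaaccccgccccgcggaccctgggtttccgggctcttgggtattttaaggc
In the Ctsd window the longer E-box began 99 bases before the start site and the core alone 245 bases before it. In the Atp6v0e window it began 3 bases after the start site, and in the Mcoln1 window 46 bases before it, with a core alone 71 bases before. The Ctsc window held no E-box, and its sterol element began 89 bases before the start site. Lamp1 had 4 core E-boxes between 61 and 15 bases before its start site, and Gla had 2 of the longer form.

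**Figure D1:**
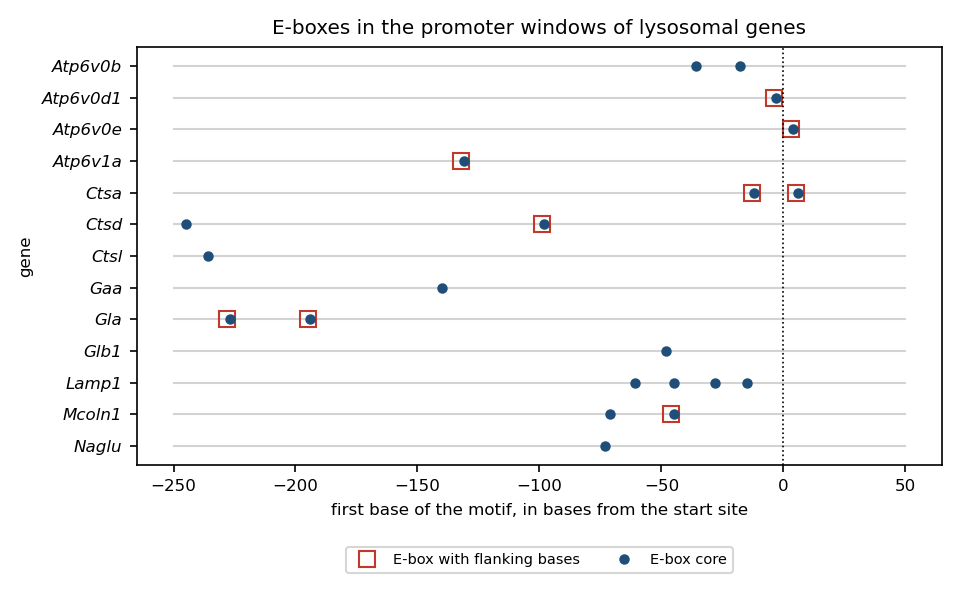
Positions of E-boxes in the promoter windows of the 13 genes that held any, with the distance of the motif's first base from the start site in bases on the x axis and genes on the y axis. Filled points are the core motif, open squares the longer form, and grey lines the 300-base windows. The longer form lay within 15 bases of the start site in Atp6v0d1, Atp6v0e and Ctsa.

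The transcription factors moved in opposite directions. Tfe3 (Entrez 209446, chromosome X, 7762560 to 7775202) stood at 68.7, 70.2 and 65.4 CPM in the Vector libraries, at 315, 303 and 323 with EST, at 332, 338 and 338 with SREBP2 and at 341, 334 and 349 with both. All 9 libraries with EST, SREBP2 or both lay far above the 3 Vector libraries. The log2 fold change was 2.20 ± 0.04 (SE) for EST in Vector cells (edgeR adjusted p = 5.46e-16) and 2.30 ± 0.04 for SREBP2 without EST (adjusted p = 1.97e-16), both measured against the same Vector libraries. With EST present SREBP2 added 0.12 ± 0.04 to it (adjusted p = 0.0269), a call that was lost when libraries were scaled by relative log expression (adjusted p = 0.0574) or by their totals (adjusted p = 0.131), when the split in fibroblast transcripts was fitted as a term (adjusted p = 0.414), with a replicate block (adjusted p = 0.154) and without Vector+EST 1 (adjusted p = 0.0619), Vector+EST 3 (adjusted p = 0.132) or SREBP2+EST 5 (adjusted p = 0.106).

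Tfeb (21425, chromosome 17, 47737030 to 47792419) stood at 23.0, 20.1 and 19.2 CPM in Vector, 14.2, 12.2 and 12.5 in Vector+EST, 11.5, 14.6 and 15.2 in SREBP2 and 14.6, 13.1 and 12.3 in SREBP2+EST. The 9 treated libraries lay below all Vector libraries and overlapped among themselves. It fell with EST in Vector cells by 0.68 ± 0.11 on the log2 scale (edgeR adjusted p = 2.53e-05) and with SREBP2 without EST by 0.59 ± 0.10 (adjusted p = 9.55e-05). Per kilobase of transcript, the ratio of Tfe3 to Tfeb went from 0.590 ± 0.0476 in Vector (SD, n = 3) to 4.35 ± 0.328 in Vector+EST and 4.42 ± 0.640 in SREBP2 with the median annotated transcript length. With the longest transcript it was 2.28 ± 0.183, 16.8 ± 1.27 and 17 ± 2.47, so which of the factors was higher in Vector cells depended on the transcript taken, while the rise of the ratio did not.

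The first comparison asked how GATA1 activation by EST changed these genes in cells with the empty vector. Of the 37 genes tested, 22 rose and 8 fell (edgeR, adjusted p under 0.05), while over all 11177 genes tested 35.2% rose and 35.5% fell. The median log2 fold change was 0.24 for the lysosomal genes and 0.01 for all genes. Since CPM are shares of the RNA of many cells, a change in RNA per cell and a change in the mix of cells cannot be told apart here or below. Rises were spread over the pump (9 of 15 tested, 1 fell), the membrane proteins (3 of 4, 1 fell) and the enzymes with their cofactors (9 of 16, 5 fell).

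The second comparison asked what active SREBP2 did without EST, against the same Vector libraries. The study reports that SREBP2 without EST also moved the GATA1 fusion into the nucleus and shared most differential genes with EST. This comparison therefore does not separate SREBP2 from GATA1 activity. Here 30 of the 37 genes rose and 5 fell, against 37.7% and 33.8% of all genes, and the median log2 fold change was 0.40 against 0.03 for all genes. Of the pump genes chosen by symbol, 14 of 15 rose and none fell by edgeR (13 and none by DESeq2). DESeq2 called 34.5% of all genes higher and 33.9% lower. At an unadjusted p under 0.05 none of the pump genes was lower, while 8194 of all 11177 genes passed it in either direction by edgeR. All 4 membrane proteins and 11 of the 16 enzymes and cofactors rose, and 4 of the latter fell. The 22 genes that rose with EST all rose here, and the 5 that fell here all fell with EST. Another 3 (Lamp2, Atp6v0b and Ctsd) fell with EST and rose here. Both comparisons rest on the same Vector libraries.

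The third comparison set SREBP2+EST against Vector+EST, the pair that the study used to look for SREBP2 targets beside active GATA1. By edgeR 22 of the 37 genes rose and none fell, against 14% and 7.94% of all genes, with a median of 0.22 against -0.00 for all genes. DESeq2 gave 19 and none, against 12% and 9.52% of all genes. At an unadjusted p under 0.05 edgeR gave 28 and none, while 3779 of all 11177 genes passed it in either direction. Of the enzymes and cofactors 12 of 16 rose, of the pump 7 of 15 and of the membrane proteins 2 of 4. The fibroblast transcripts other than Col1a2 and Dcn separated these groups except for Vector+EST 5. With that split as a term 13 of the 37 genes rose and none fell, while the calls over all genes went from 2448 to 1085 (7.93% higher and 1.78% lower). In this comparison Vector+EST 5 alone separates the term from SREBP2, so the fit cannot tell an effect of the split from lost precision.

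**Figure D2:**
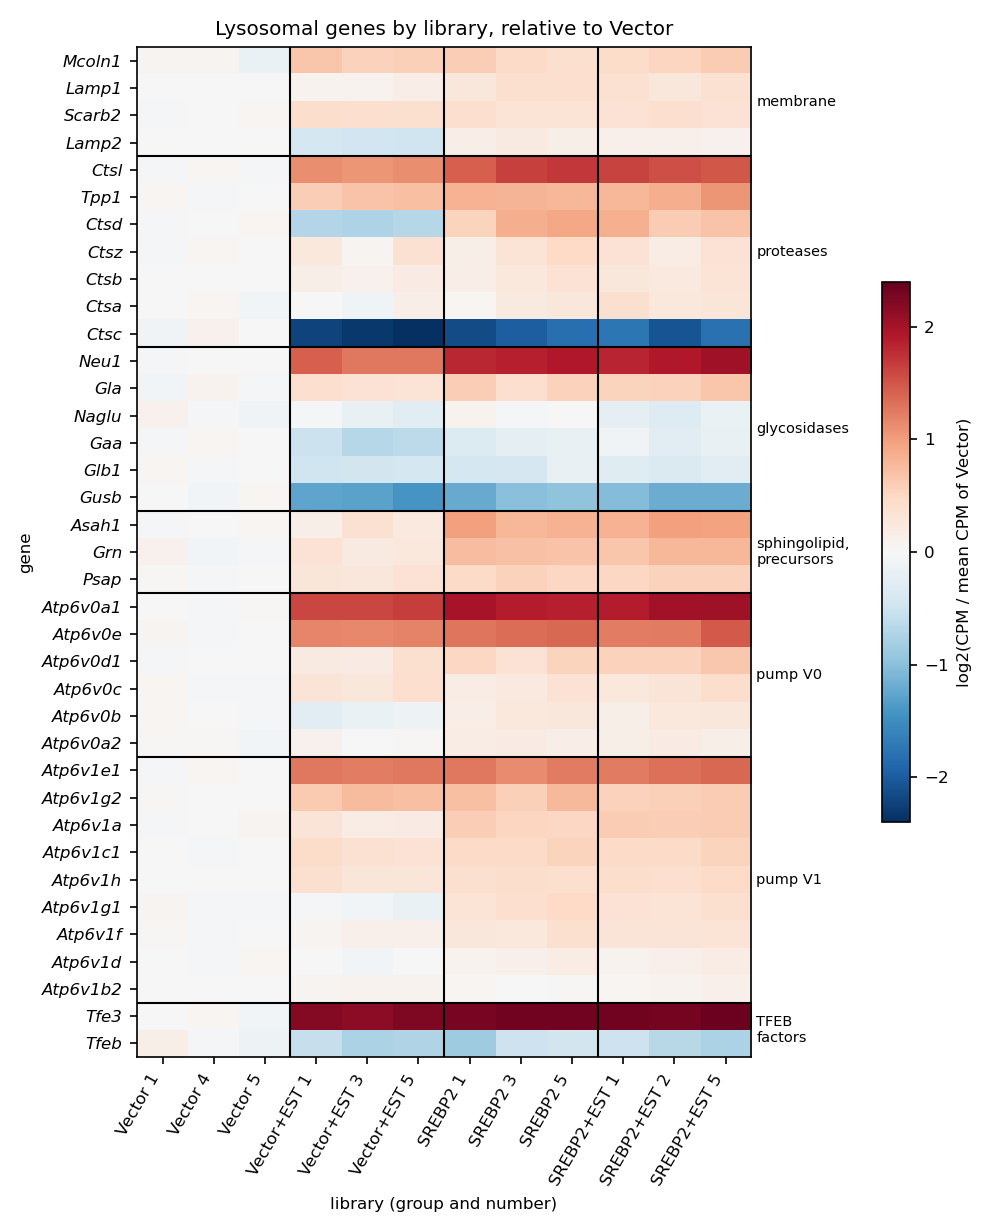
Level of the 37 tested genes (rows, grouped by role) in each of the 12 libraries (columns, grouped by treatment), as log2 of CPM over the mean CPM of Vector, in color from blue (lower) to red (higher). Tfe3, Atp6v0a1 and Neu1 are the darkest red in all 9 treated libraries and Ctsc and Gusb the darkest blue, while Ctsd is blue in Vector+EST and red in both SREBP2 groups.

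**Figure D3:**
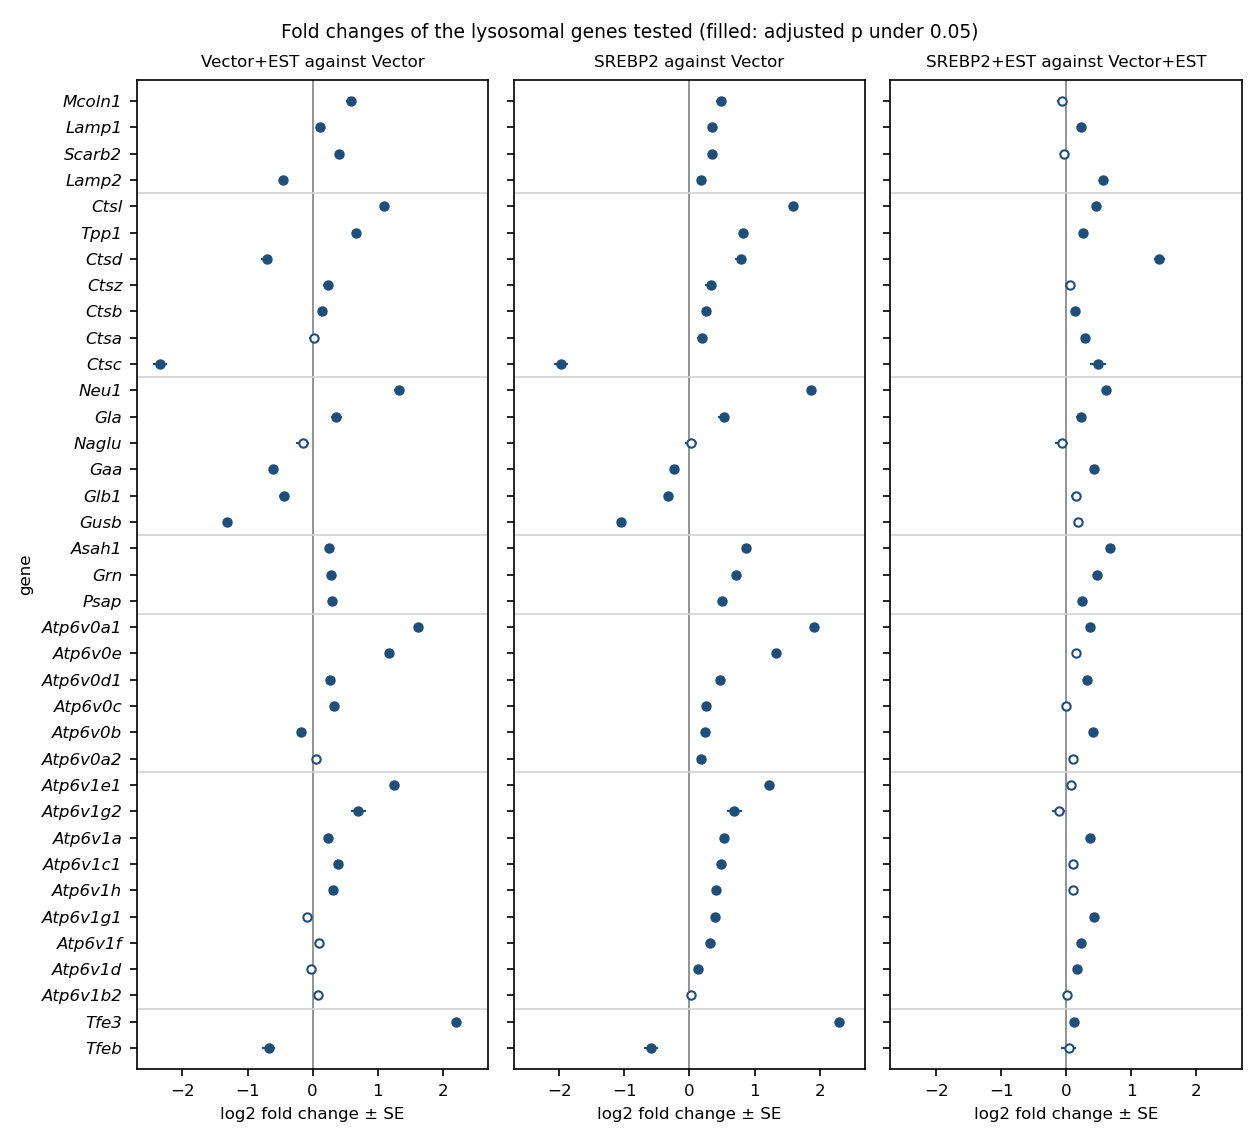
Log2 fold change ± SE (x axis) of each tested gene (y axis) for EST in Vector cells, SREBP2 without EST and SREBP2 with EST, in 3 panels. Filled points have an adjusted p under 0.05, and no filled point in the right panel lies below 0.

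Among the membrane proteins, Lamp2, a heavily glycosylated protein that lines the membrane and takes part in autophagy, set EST and SREBP2 apart. It stood at 91.2, 92.3 and 91.8 CPM in the Vector libraries, at 68.7, 67.1 and 65.7 with EST, at 103, 106 and 101 with SREBP2 and at 100, 99.6 and 99.0 with both. The groups did not overlap: Vector+EST lay lowest, Vector next and both SREBP2 groups highest. EST lowered it in Vector cells by 0.45 ± 0.04 on the log2 scale (edgeR adjusted p = 2.07e-08), and SREBP2 raised it by 0.17 ± 0.04 without EST (adjusted p = 0.000567) and by 0.57 ± 0.04 with EST (adjusted p = 7.77e-09). Mcoln1, the calcium channel of the lysosome, stood at 19, 18.9 and 16.3 CPM in Vector, 28.7, 26.4 and 26.9 in Vector+EST, 27.4, 24.9 and 23.7 in SREBP2 and 24.6, 26.0 and 27.5 in SREBP2+EST. The 9 treated libraries lay above Vector and overlapped one another. Its log2 fold change was 0.60 ± 0.08 with EST (adjusted p = 3.15e-06) and 0.49 ± 0.08 with SREBP2 (adjusted p = 3.12e-05).

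Lamp1, the other main protein of the membrane, rose from a mean of 298 CPM in Vector to 322 CPM in Vector+EST, a log2 fold change of 0.11 (edgeR adjusted p = 0.0252) that was lost under DESeq2 and other settings, and to 380 CPM in SREBP2 (0.35, adjusted p = 9.09e-07). Scarb2, which carries glucocerebrosidase to the lysosome, rose by 0.40 with EST and by 0.35 with SREBP2 alone, and in SREBP2+EST (89.9 CPM) it overlapped Vector+EST (92.3 CPM).

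Among the proteases, Ctsd (cathepsin D, an aspartic protease; chromosome 7, 142375911 to 142388038) had the largest SREBP2 effect in the presence of EST of all 37 genes. It stood at 197, 198 and 208 CPM in the Vector libraries, at 124, 120 and 125 with EST, at 290, 366 and 383 with SREBP2 and at 363, 305 and 323 with both. Vector+EST lay below Vector in all libraries, and all 6 SREBP2 libraries lay above Vector, with SREBP2 1 the lowest of them. The log2 fold change was -0.71 ± 0.08 for EST in Vector cells (edgeR adjusted p = 1.30e-06), 0.79 ± 0.08 for SREBP2 without EST (adjusted p = 2.59e-07) and 1.43 ± 0.08 for SREBP2 with EST (adjusted p = 1.69e-09). On the same strand, 808 of its 2351 exon bases are shared with the gene model Gm49369, which has no row in the count table.

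Ctsl (cathepsin L, a cysteine protease) stood at 59.6, 62.9 and 59.8 CPM in Vector, 131, 127 and 131 in Vector+EST, 164, 190 and 196 in SREBP2 and 187, 177 and 170 in SREBP2+EST. The groups rose from Vector over Vector+EST to the SREBP2 groups without overlap except between the latter. Its log2 fold change was 1.09 ± 0.06 with EST (edgeR adjusted p = 1.25e-10), 1.59 ± 0.06 with SREBP2 (adjusted p = 9.48e-13) and 0.46 ± 0.06 for SREBP2 with EST (adjusted p = 1.64e-05). Of the 6489 exon bases of Ctsl, 395 are shared with Gm49230 on the same strand and 1742 with Gm47123 on the opposite strand. Neither has a row in the count table. Ctsc (cathepsin C, which activates granule proteases of blood cells; chromosome 7, 88278085 to 88310888) went the other way, at 22.4, 25.6 and 23.6 CPM in the Vector libraries, at 5.10, 4.81 and 4.19 with EST, at 5.40, 6.07 and 6.78 with SREBP2 and at 7.15, 5.71 and 6.95 with both. All treated libraries lay far below Vector and close together. Ctsc fell by 2.34 ± 0.11 on the log2 scale with EST (adjusted p = 1.14e-11) and by 1.97 ± 0.10 with SREBP2 (adjusted p = 5.07e-11), and beside EST SREBP2 raised it by 0.49 ± 0.13 (adjusted p = 0.0104).

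Of the other proteases, Tpp1, which removes tripeptides from protein ends, rose by 0.66 with EST (edgeR adjusted p = 3.44e-08) and by 0.82 with SREBP2 (adjusted p = 2.43e-09). Ctsz and Ctsb moved less, by 0.24 and 0.15 with EST and by 0.32 and 0.25 with SREBP2. The EST calls of both were lost without Vector 1 or without Vector+EST 5, with an adjusted p of up to 0.13 for Ctsz and 0.096 for Ctsb over all settings. Ctsa, which protects Neu1 and Glb1 in a complex, had a log2 fold change of 0.02 with EST (adjusted p = 0.803) and 0.19 with SREBP2 (adjusted p = 0.0314), the latter lost under DESeq2 and both other scalings. Ctsb shares 774 exon bases with Fdft1, a cholesterol synthesis gene on the opposite strand that moved from 257 CPM in Vector to 193 CPM in Vector+EST and to 502 CPM in SREBP2. The sources used here do not state whether counting used strand, so reads from these 774 bases cannot be assigned.

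The glycosidases split. Neu1, the sialidase that removes sialic acid from glycoproteins and glycolipids, stood at 11.3, 11.7 and 11.6 CPM in Vector, 31.2, 27.7 and 27.7 in Vector+EST, 40.4, 42.3 and 43.8 in SREBP2 and 41.0, 43.8 and 47.1 in SREBP2+EST. Vector lay lowest, Vector+EST in between and the SREBP2 groups highest, with no overlap except between the latter. Its log2 fold change was 1.32 ± 0.07 with EST (edgeR adjusted p = 1.61e-10), 1.87 ± 0.07 with SREBP2 (adjusted p = 1.28e-12) and 0.61 ± 0.06 for SREBP2 with EST (adjusted p = 2.52e-06). Gla, the α-galactosidase that is lost in Fabry disease, also rose, by 0.36 with EST and 0.52 with SREBP2.

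Gusb, Gaa and Glb1 fell. Gusb (β-glucuronidase) stood at 112, 106 and 114 CPM in the Vector libraries, at 46.1, 45.5 and 41.8 with EST, at 48.0, 55.5 and 56.7 with SREBP2 and at 54.0, 48.5 and 48.7 with both. All 9 treated libraries lay well below Vector. Gusb fell by 1.32 ± 0.06 on the log2 scale with EST (edgeR adjusted p = 2.61e-11) and by 1.05 ± 0.06 with SREBP2 (adjusted p = 3.00e-10). Gaa (acid α-glucosidase, which degrades glycogen) stood at 92.0, 96.9 and 93.2 CPM in Vector, 65.5, 58.6 and 60.7 in Vector+EST, 75.0, 81.3 and 83.2 in SREBP2 and 88.9, 78.1 and 82.7 in SREBP2+EST. Vector lay highest, the SREBP2 groups next and Vector+EST lowest, without overlap except between the SREBP2 groups. Gaa fell by 0.61 ± 0.06 with EST (adjusted p = 7.48e-08) and by 0.24 ± 0.06 with SREBP2 (adjusted p = 0.00121), and beside EST SREBP2 raised it by 0.43 ± 0.06 (adjusted p = 3.28e-05).

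Glb1 (β-galactosidase) stood at 35.1, 32.9 and 34.2 CPM in the Vector libraries, at 24.5, 25 and 25.4 with EST, at 25.5, 25.8 and 30.3 with SREBP2 and at 28, 26.8 and 28.2 with both. Every treated library lay below Vector. It fell by 0.45 ± 0.06 on the log2 scale with EST (edgeR adjusted p = 1.14e-05) and by 0.33 ± 0.06 with SREBP2 (adjusted p = 0.00026). Tmppe, which shares 165 exon bases with it on the same strand, fell too, from 38.3 to 26.9 and 28.6 CPM. Naglu, which takes part in heparan sulfate breakdown, had log2 fold changes of -0.16 and 0.02 that did not pass (adjusted p = 0.161 and 0.867).

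The sphingolipid and precursor proteins rose, 3 of 3 in each of the 3 comparisons, in which 35.2% (EST), 37.7% (SREBP2) and 14% (SREBP2 with EST) of all genes rose. Asah1 (acid ceramidase) stood at 26.3, 26.7 and 27.8 CPM in Vector, 29.8, 34.6 and 31.7 in Vector+EST, 53.0, 47.0 and 47.9 in SREBP2 and 47.7, 53.2 and 52.3 in SREBP2+EST. The 6 SREBP2 libraries lay well above the Vector+EST libraries, which lay slightly above Vector. Its log2 fold change was 0.25 ± 0.07 with EST (edgeR adjusted p = 0.00408), 0.87 ± 0.07 with SREBP2 (adjusted p = 6.50e-09) and 0.67 ± 0.07 for SREBP2 with EST (adjusted p = 9.42e-07). Psap, the precursor of the saposins that present sphingolipids to their enzymes, stood at 79.6, 76.5 and 76.9 CPM in the Vector libraries, at 95.0, 93.3 and 98.2 with EST, at 107, 114 and 109 with SREBP2 and at 110, 114 and 114 with both. It showed the same order of groups, with log2 fold changes of 0.30 ± 0.04 (adjusted p = 6.18e-06), 0.50 ± 0.04 (adjusted p = 1.17e-08) and 0.24 ± 0.04 (adjusted p = 0.000307). Grn, the progranulin precursor, changed by 0.28, 0.71 and 0.48 in the same comparisons.

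The pump was also summed per library. The summed level of the 22 pump genes chosen by symbol was 1338 ± 14.3 CPM in Vector (SD, n = 3) and 1949 ± 27.1 CPM in Vector+EST. It was 2161 ± 32.2 CPM in SREBP2 and 2230 ± 86.8 CPM in SREBP2+EST. For comparison, the sum over the enzymes and cofactors was 1055 ± 4.43 CPM in Vector and 1056 ± 23.8 CPM with EST, and 1466 ± 98.1 and 1471 ± 44.8 CPM in SREBP2 and SREBP2+EST. These sums are levels per library, and a longer gene weighs more in them.

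In the V0 part, Atp6v0a1 (11975, chromosome 11, 101009452 to 101063719) is an isoform of the large membrane subunit. Of the pump genes chosen by symbol, it had the largest rise with EST and with SREBP2 without EST, though not for SREBP2 with EST. It stood at 135, 132 and 136 CPM in Vector, 408, 411 and 423 in Vector+EST, 531, 498 and 488 in SREBP2 and 499, 542 and 550 in SREBP2+EST. Vector+EST lay well above Vector, and both SREBP2 groups lay above Vector+EST without overlap. The log2 fold change was 1.62 ± 0.04 with EST (edgeR adjusted p = 3.36e-14), 1.91 ± 0.04 with SREBP2 (adjusted p = 3.61e-15) and 0.36 ± 0.04 for SREBP2 with EST (adjusted p = 8.72e-06). Its sister isoform Atp6v0a2 had a log2 fold change of 0.05 with EST (adjusted p = 0.388) and 0.17 with SREBP2 (adjusted p = 0.00288). Per kilobase of the median transcript, the ratio of Atp6v0a1 to Atp6v0a2 went from 3.93 ± 0.213 in Vector (SD, n = 3) to 11.7 ± 0.490 in Vector+EST, 13.1 ± 0.571 in SREBP2 and 13.9 ± 0.646 in SREBP2+EST. The isoforms Atp6v0a4 and Atp6v0d2, known from kidney and bone, did not exceed 2 counts in any library.

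Atp6v0e, a small V0 subunit, rose from a mean of 71.8 ± 2.60 CPM in Vector (SD, n = 3) to 162 ± 2.37 CPM in Vector+EST, 181 ± 6.00 CPM in SREBP2 and 180 ± 17.2 CPM in SREBP2+EST (log2 fold change 1.17 with EST and 1.34 with SREBP2, edgeR adjusted p = 3.23e-11 and 5.33e-12). Atp6v0b, a ring subunit, stood at 84.8, 81.8 and 79.9 CPM in the Vector libraries, at 68.5, 73.7 and 75.7 with EST, at 92.3, 97.6 and 99.4 with SREBP2 and at 90.5, 98.3 and 99.6 with both. As with Lamp2 and Ctsd, Vector+EST lay lowest and the SREBP2 groups highest. Its log2 fold change was -0.18 ± 0.05 with EST (adjusted p = 0.00545), 0.23 ± 0.05 with SREBP2 (adjusted p = 0.000627) and 0.40 ± 0.05 for SREBP2 with EST (adjusted p = 1.85e-05). Atp6v0d1 and the main ring subunit Atp6v0c rose by 0.27 and 0.33 with EST and by 0.47 and 0.26 with SREBP2. Atp6v0c has 2 named pseudogenes, between which short reads may be shared, so its level is uncertain.

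In the V1 part, Atp6v1e1, of the stalk that joins both parts, stood at 82.3, 87.9 and 85.4 CPM in Vector, 206, 199 and 205 in Vector+EST, 206, 188 and 202 in SREBP2 and 203, 213 and 223 in SREBP2+EST. All 9 treated libraries lay far above Vector and overlapped one another. The log2 fold change was 1.25 ± 0.05 with EST (edgeR adjusted p = 1.14e-12) and 1.22 ± 0.05 with SREBP2 (adjusted p = 1.15e-12). Atp6v1g1, another stalk subunit, stood at 84.7, 79.8 and 79.9 CPM in the Vector libraries, at 79.8, 77.5 and 73.2 with EST, at 102, 107 and 113 with SREBP2 and at 104, 102 and 106 with both. Vector+EST overlapped Vector, and the 6 SREBP2 libraries lay above both. Its log2 fold change was -0.08 ± 0.05 with EST (adjusted p = 0.132; 0.012 with both libraries numbered 1 with SREBP2 left out), 0.40 ± 0.05 with SREBP2 (adjusted p = 1.15e-06) and 0.43 ± 0.05 for SREBP2 with EST (adjusted p = 4.12e-06).

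The subunits of the ATP-splitting head differed. The catalytic Atp6v1a rose by 0.23 with EST and by 0.53 with SREBP2 (edgeR adjusted p = 0.000211 and 1.59e-08), whereas its partner Atp6v1b2 had log2 fold changes of 0.08 and 0.02 (adjusted p = 0.0504 and 0.522), at means between 194 and 206 CPM in all groups. Atp6v1c1 and Atp6v1h rose by 0.39 and 0.32 with EST and by 0.49 and 0.40 with SREBP2. Atp6v1f and Atp6v1d passed only with SREBP2, at 0.31 and 0.13, against 0.10 and -0.03 with EST, and the call of Atp6v1d was lost under DESeq2 and library totals. Atp6v1g2, a form of the stalk subunit known from neurons, was low, at 3.09 ± 0.0381 CPM in Vector (SD, n = 3), and rose by 0.70 with EST and 0.69 with SREBP2. The tissue-restricted Atp6v1b1, Atp6v1c2 and Atp6v1e2, and Atp6v1fnb, which is not a subunit, had at most 3 counts in any library.

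**Figure D4:**
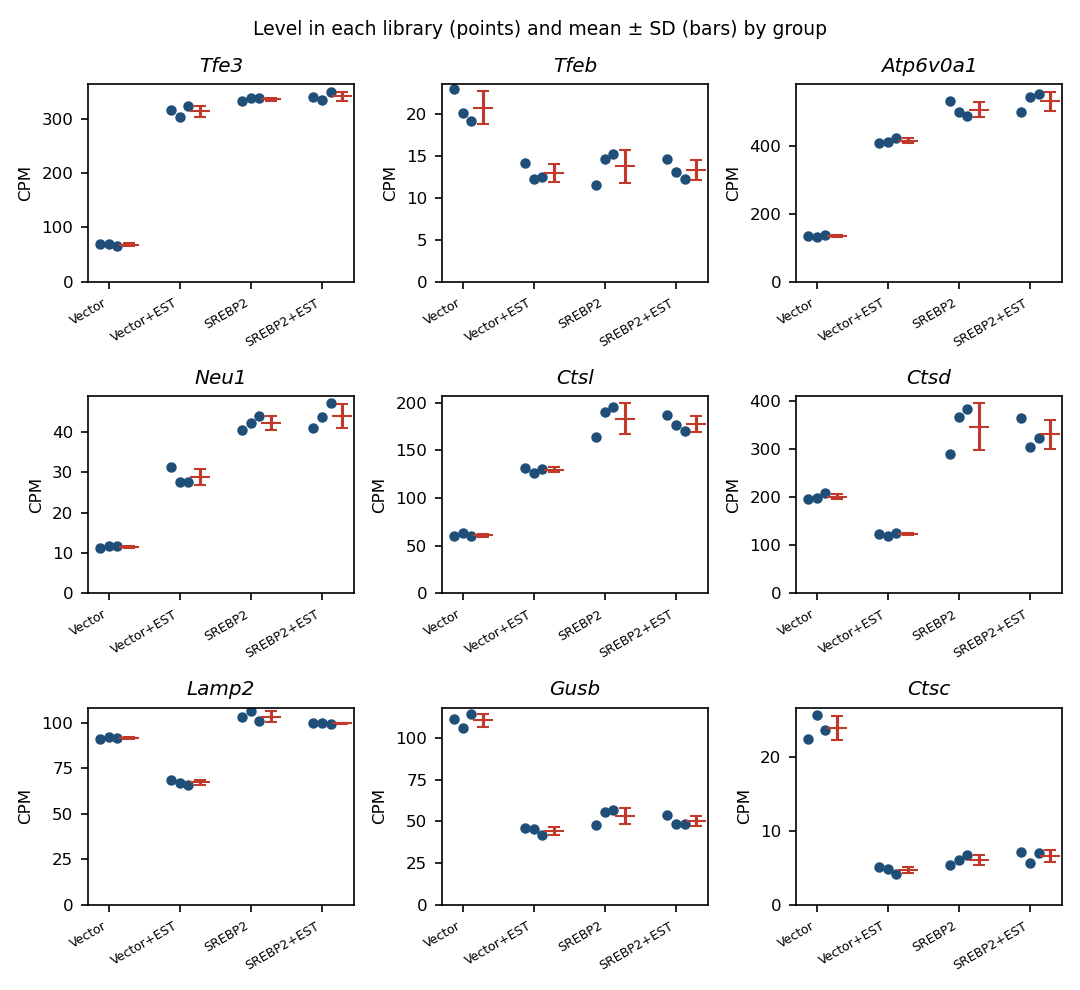
CPM of 9 lysosomal genes in each library (points) with the mean ± SD of each group (bars), one panel per gene, y axes starting at 0. Tfe3, Atp6v0a1, Neu1 and Ctsl are high in all treated groups, Tfeb, Gusb and Ctsc are low in all of them, and Ctsd and Lamp2 are lowest in Vector+EST.

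Of the remaining untested genes, Hexa, the α-chain of β-hexosaminidase, had at most 1 count in any library, and Atp6v0e2 at most 3. Cd63, a membrane protein common on late endosomes and platelet granules, had at most 5 counts, in Vector+EST 5. At this depth 3 counts came to between 0.153 and 0.163 CPM, so the transcripts of these 9 genes, if present, were near or below that level in the table, and whether reads of Hexa or Cd63 were lost in counting was not tested.

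SREBP2 alone was compared directly with EST alone. Of the 37 genes, 19 were higher in SREBP2 than in Vector+EST and none was lower by edgeR, against 14.4% and 8.96% of all genes (23.4% together), with a median of 0.17 against -0.00. DESeq2 gave 17 higher and none lower, against 12.6% and 9.21% of all genes. At an unadjusted p under 0.05 edgeR gave 26 and none, while 3888 of all 11177 genes passed it in either direction. The largest differences were those of Ctsd (log2 fold change 1.49 ± 0.08, edgeR adjusted p = 8.71e-10), Lamp2 (0.62 ± 0.04, adjusted p = 2.22e-09), Asah1 (0.62 ± 0.07, adjusted p = 2.54e-06) and Neu1 (0.55 ± 0.06, adjusted p = 8.48e-06). With Ctsl (0.50), Atp6v1g1 (0.48), Grn (0.44), Atp6v0b (0.41) and Gaa (0.37) they are enzymes, membrane and pump genes alike. Under library totals alone Atp6v1b2 became a lower call. This comparison and that of SREBP2 with EST share the Vector+EST libraries. Over all genes, the share of calls that were higher was 61.7% here and 63.7% for SREBP2 with EST, and it was 42.2% in both when libraries were scaled by totals alone, where 15 and 18 of the lysosomal genes were higher.

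In cells with active SREBP2, EST changed none of the 37 genes, against 0% of all 11177 genes by edgeR, and 2 of the 37 genes and 506 of all genes had an unadjusted p under 0.05. DESeq2 called 12 genes overall and none of the 37. The log2 fold changes lay between -0.25 (Naglu, adjusted p = 0.919) and 0.13 (Ctsa, adjusted p = 0.919). Ctsd, at -0.07 ± 0.08, and Tfe3, at 0.02 ± 0.04, are set beside -0.71 and 2.20 in Vector cells. When SREBP2 1 and SREBP2+EST 1 were both left out, 6 of the 37 genes and 1582 of all genes (14.2%) passed, and none of the 37 passed when either was left out alone. Ctsd was among the 6, at -0.25 (adjusted p = 0.000224). These are the libraries whose deviations correlated with those of the other group, and their part in the result was not tested further.

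Whether EST acted differently in the presence of SREBP2 was tested gene by gene as an interaction, positive where the EST effect was higher with SREBP2. It was positive for 8 and negative for 17 of the 37 genes, together 25 genes, against 29.8% and 29.2% (59% together) of all genes, with a median of -0.16 against -0.00. It ran from -2.18 ± 0.05 for Tfe3 to 2.46 ± 0.16 for Ctsc (edgeR adjusted p = 5.56e-14 and 2.83e-09). The interaction and the EST effect in Vector cells rest on the same Vector libraries, so their signs are not independent.

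All 7 genes with the longer E-box rose with SREBP2 without EST, by a log2 fold change of 0.19 (Ctsa, the call lost under DESeq2 and both other scalings) to 1.34 (Atp6v0e). Of the 23 other tested genes with a window, 17 rose and 5 fell, while 37.7% of all genes rose. The motif was searched after these values were known, so the counts are a description. With EST in Vector cells 5 of them rose, Ctsd fell and Ctsa did not pass, while 13 of the 23 others and 35.2% of all genes rose. In SREBP2+EST against Vector+EST, Atp6v0d1 (0.31), Atp6v1a (0.37), Ctsa (0.29), Ctsd (1.43) and Gla (0.22) rose, the last lost under most settings, and Atp6v0e and Mcoln1 did not pass, while 14 of the 23 others and 14% of all genes rose. Genes with a core E-box alone went both ways with SREBP2: Lamp1, Ctsl and Atp6v0b rose, Gaa and Glb1 fell, and Naglu did not pass. The genes that rose the most without an E-box in the window were Tfe3, Atp6v0a1 and Neu1.

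Other genes of the lysosome, taken from lists apart from the 46, were described in the same way, and their counts stand beside shares of all genes of 35.2% higher and 35.5% lower with EST, 37.7% and 33.8% with SREBP2, and 14% and 7.94% with SREBP2 beside EST. Of 22 further enzymes tested, 11 rose and 8 fell with EST in Vector cells and 12 rose and 8 fell with SREBP2. With SREBP2 beside EST 10 rose and none fell. For that comparison DESeq2 gave 8 and none, against 12% and 9.52% of all genes. At an unadjusted p under 0.05 edgeR gave 15 and none, while 3779 of all 11177 genes passed it in either direction. Pla2g15, a lysosomal phospholipase, went from 2.64 CPM in Vector to 15.3 CPM in Vector+EST and to 17.8 CPM in SREBP2, and Arsa (arylsulfatase A) from 22.3 to 33.4 and 71.9 CPM. Of 18 further membrane or lipid-transfer proteins, 8 rose and 7 fell with EST (44.4% and 38.9%), 10 rose and 7 fell with SREBP2 and 6 rose with SREBP2 beside EST. Npc2, which binds cholesterol inside the lysosome, went from 68.0 CPM in Vector to 233 CPM in Vector+EST and to 332 CPM in SREBP2 (log2 fold change 1.78 and 2.29, edgeR adjusted p = 2.86e-14 and 1.26e-15), while the cation channel Tpcn1 fell from 175 to 49.8 and 49.7 CPM.

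Against the same shares of all genes, of 9 accessory genes of the pump 4 rose and 2 fell with EST, 6 rose and 2 fell with SREBP2 and 3 rose with SREBP2 beside EST. Rogdi, which belongs to a complex that assembles the pump, changed the most, from 11.7 CPM in Vector to 195 CPM in Vector+EST, 204 CPM in SREBP2 and 224 CPM in SREBP2+EST (log2 fold change 4.05 and 4.12, edgeR adjusted p = 5.28e-15 and 2.83e-15). Atp6ap1 went from 89.9 to 162 and 172 CPM, and Atp6ap2 stood at 58.8 CPM in Vector+EST against 94.0 CPM in SREBP2+EST (log2 fold change 0.68, adjusted p = 1.57e-08). Of 6 delivery genes, 1 rose and 3 fell with EST, 2 rose and 3 fell with SREBP2, and 1 rose with SREBP2 beside EST. That gene was M6pr, the mannose 6-phosphate receptor, which fell from 323 to 187 CPM with EST, fell by 0.37 on the log2 scale with SREBP2 alone (edgeR adjusted p = 6.16e-05) and rose by 0.36 on the log2 scale with SREBP2 beside EST (edgeR adjusted p = 0.000632). Of 13 relatives and regulators of TFEB, 3 rose and 4 fell with EST, 8 rose and 1 fell with SREBP2, and 4 rose with SREBP2 beside EST, with Rraga at 81.5 CPM in Vector, 208 CPM with EST and 185 CPM with SREBP2.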

How the data were processed

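Poly(A) RNA of 12 libraries was sequenced as single-end reads on the DNBSEQ platform. The authors deposited estimated counts per gene, not normalized, for 17210 mouse genes (66.5% of values whole). The submitters' processing notes list HISAT2 2.0.4, Bowtie2 2.2.5, RSEM 1.2.12, DESeq2 1.4.5 and GRCm38.p6, and the annotation and strand setting are not given in the sources used here. A second table with the authors' own comparisons per transcript (log2 fold changes, p-values) was not used.

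Counts were rounded, genes kept by edgeR's filterByExpr (11177 of 17210), libraries scaled by TMM, and contrasts tested with edgeR 4.0.16 (R 4.3.3) by its quasi-likelihood F-test on the 4 group means over all 12 libraries, with Benjamini-Hochberg adjustment over all genes tested and a threshold of 0.05. The SE is the log2 fold change over the square root of F. The low-count floor was 3 counts. The procedure was run on simulated counts in which few genes were changed, so it was not tested where most genes are called, as here. DESeq2 1.42.0, RLE or total scaling, other filters, fewer libraries, each library left out, a replicate block and, added after seeing the data, a fibroblast-transcript term were alternatives. Lengths and exon overlaps came from GENCODE M21, promoters from RefSeq.

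The genes and lists were chosen with earlier results of these data known. Every library's value is given for Tfeb, Tfe3, the largest rise and fall of each class past the threshold in each of the first 3 comparisons (mean at least 3 log2 CPM), and genes whose interaction passed with a sign opposite to the median.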

Additional observations from a re-analysis of the deposited data

Results flagged for a closer look

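The EST effect differed between Vector and SREBP2 cells, by the interaction test, for 25 of the 37 lysosomal genes tested, positively for 8 and negatively for 17, while 59% of all genes passed, 29.8% positively and 29.2% negatively. These are log2 differences, the EST effect in SREBP2 cells minus that in Vector cells, tested with edgeR and adjusted over all genes. Among the genes whose library values were given, the negative ones were Tfe3 (-2.18), Atp6v0a1 (-1.55), Neu1 (-1.26), Atp6v1e1 (-1.15), Ctsl (-1.14), Mcoln1 (-0.56) and Psap (-0.26). The positive ones were Ctsc (2.46), Gusb (1.23), Gaa (0.67), Ctsd (0.64), Tfeb (0.63), Glb1 (0.47), Lamp2 (0.40) and Atp6v0b (0.17). For 13 of these 15 genes the EST effect in SREBP2 cells itself lay within 0.09 of 0 with all libraries. With both libraries numbered 1 with SREBP2 left out, it passed for Ctsd (-0.25), Gusb (-0.21), Ctsl (-0.15), Atp6v0a1 (0.15) and Atp6v1e1 (0.16). Atp6v0b, with an adjusted p of 0.0476, was the weakest and was lost under 10 of 20 alternatives.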

How the results depend on the processing

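No call of a lysosomal gene whose library values were given changed sign. Of 2125 values of these 17 genes over the 6 comparisons and all alternatives, 2081 kept their side of the threshold, 31 lost it, all of them for Tfe3 (SREBP2 with EST), Ctsc (SREBP2 against EST alone) or Atp6v0b (interaction), and 13 gained it. The ratio of Tfe3 to Tfeb per kilobase in Vector went from 0.590 with the median transcript to 2.28 with the longest, and thus crossed 1. Over all genes, the share of calls that were higher for SREBP2 against EST alone went from 61.7% to 42.2% under library totals. With the fibroblast-transcript split as a term, added after seeing the data, the genes higher for SREBP2 with EST went from 22 to 13, while calls over all genes went from 2448 to 1085. Vector+EST 5 alone separates that term from SREBP2 in this comparison. With both libraries numbered 1 with SREBP2 left out, 3 genes were higher and 3 lower for EST in SREBP2 cells, against none with all libraries, while 14.2% of all genes passed. Under library totals 1 gene was lower for SREBP2 against EST alone. The cause was not tested. Leaving out 1 library at a time gave 19 to 24 higher and 8 to 9 lower genes for EST in Vector cells, 28 to 30 and 5 for SREBP2 without EST, 17 to 24 and 0 for SREBP2 with EST, 0 and 0 for EST in SREBP2 cells, 7 to 8 and 14 to 18 for the interaction, and 15 to 21 and 0 for SREBP2 against EST alone. The share of all genes that was higher in these fits ran from 30.5 to 35.4% for EST in Vector cells and from 33.4 to 38% for SREBP2 without EST. It ran from 11.3 to 16.1% for SREBP2 with EST and from 11.6 to 16.5% for SREBP2 against EST alone. Numbers in the count table did not pair the libraries: deviations of same-numbered libraries correlated between -0.17 and 0.067. With them as a replicate block, 21 genes were higher and 8 lower for EST in Vector cells, 28 and 5 for SREBP2 without EST, 17 and 0 for SREBP2 with EST (1208 calls over all genes), and 16 and 0 for SREBP2 against EST alone (1802 calls, against 2617 without the block). In the block fit 31.3% of all genes were higher and 32% lower for EST in Vector cells, and 33.9% and 30.3% for SREBP2 without EST. Scaling moved the median of all genes by at most 0.057 on the log2 scale. Genes under 3 counts, such as Hexa, could not be compared at this depth.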
